A study of Homo sapiens with 18 samples.

Results

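PRDM1 and ATG5 are overlapping genes on the long arm of chromosome 6, read from opposite strands. The 77 peaks of open chromatin described here, of 334857 in the whole series, are those that overlap either gene body or the 100 kb on each side of the pair, by position alone. The window runs from chr6:105893463-106425791 (hg38, 532.3 kb). Of the 77 peaks, 21 touch the PRDM1 body, 41 the ATG5 body and 11 both. All 77 passed the filter on low counts, which removed 0 peaks of the table.

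PRDM1 encodes BLIMP1, a zinc finger protein that represses transcription and is best known for switching B cells to antibody-secreting plasma cells. ATG5 is a core autophagy protein that is joined to ATG12 and, together with ATG16L1, directs the attachment of LC3 to the membranes that enclose cell cargo. The study counted PRDM1 among the transcription factors of inflammatory fibroblasts. It reported lower chromatin accessibility at the PRDM1 locus after an inhibitor of histone deacetylases. Histone deacetylases remove acetyl groups from histones, and their inhibition generally raises acetylation.

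Accessibility was measured by bulk ATAC-seq, in which a transposase inserts adaptors into open chromatin, in Ccd18-Co, an established line of human colon fibroblasts. There were 3 groups of 6 libraries. Unstimulated cells are labelled as such, and no vehicle or culture time is recorded for them. Effects of DMSO or of time in culture therefore cannot be told apart from those of the cytokines. The other 2 groups received 3 pulses of 72 h with TNF, OSM and IL-17A (10 ng/ml each) and IL-1β (0.1 ng/ml), each pulse followed by 96 h of recovery, then 1 week of rest, and then 5 days of DMSO, the solvent, or of 250 nM belinostat, the deacetylase inhibitor. Cells were collected 2 weeks after that. These doses are the labelled ones, and in the written methods the belinostat concentration is higher and that of IL-1β is in places lower. DMSO minus unstimulated is called the cytokine contrast, belinostat minus DMSO the belinostat contrast and belinostat minus unstimulated the residual contrast. These contrasts share libraries, so their values are set side by side and not correlated. All libraries come from 1 cell line and nothing in the labels says that they came from separate cultures, so p-values measure the spread between these libraries only.

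Libraries held between 4661678 and 11352032 counts in peaks, and belinostat libraries were the shallowest (median 5505435.5, against 7181113.5 for DMSO and 7918719.5 for unstimulated libraries). The window held between 959 and 2401 counts per library, and the median of 1 peak in 1 library was 7. One unstimulated library, number 6, stood apart with 11.3% of all peaks at 0, and results that rest on it are given without it. All 9 fibroblast genes on the marker list had a peak at their start. In unstimulated libraries they ran from 4.19 CPM (counts scaled to library size) at LUM to 89.7 at COL1A1. The smooth muscle genes ACTG2 (23.7 CPM) and MYH11 (13.8 CPM) lay within that range in the same libraries, and DES lay below it. Epithelial genes reached at most 2.28 CPM there (EPCAM) and endothelial genes 0.659 (VWF). These levels thus did not set fibroblast genes apart from all smooth muscle genes. Of 6 genes of lymphocytes and plasma cells, in which PRDM1 is best studied, PTPRC, CD79A, MS4A1 and JCHAIN had 0 peaks at their starts, and CD3E (0.324 to 0.843 CPM) and MZB1 (0.842 to 1.37 CPM) had a weak one.

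The canonical PRDM1 transcript starts at position 106086336 on the forward strand, and positions below are distances from it to the centre of a peak, positive in the direction of PRDM1. Longer PRDM1 isoforms start further upstream, and the gene record begins at 105993463. The canonical ATG5 transcript covers 106184476 to 106325760 on the reverse strand and does not reach PRDM1. Only a longer ATG5 isoform extends the gene record to 106045423 and across PRDM1, so a peak counted here in both genes cannot be assigned to either. The start of CRYBG1, at 106360717, also lies in the window.

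The peak on which most of the results turn lies 1620 bp upstream of the canonical PRDM1 start (chr6:106084434-106084999, 566 bp), in an intron of both the longer PRDM1 isoforms and the longer ATG5 isoform. Its central 300 bases (chr6:106084567-106084866, forward strand) are printed first, with an AP-1 word (TGANTCA) and 3 E-boxes (CANNTG) in capitals. The 300 bases upstream of the 2 genes follow for comparison, counted from the outermost annotated start within 1 kb of each canonical start. They are for PRDM1 chr6:106086020-106086319 on the forward strand, with E-boxes and NF-kB words (3 G, 5 of any base, 2 C) in capitals, some of them overlapping, and for ATG5 chr6:106325792-106326091 on the reverse strand, with a STAT word (TTCNNNGAA) and an E-box.
Peak at -1.62 kb: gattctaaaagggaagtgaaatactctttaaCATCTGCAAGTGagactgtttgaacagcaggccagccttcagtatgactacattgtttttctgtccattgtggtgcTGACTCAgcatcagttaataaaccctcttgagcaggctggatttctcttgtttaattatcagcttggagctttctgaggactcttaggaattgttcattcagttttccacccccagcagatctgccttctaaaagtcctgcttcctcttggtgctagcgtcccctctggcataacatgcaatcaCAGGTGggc
Upstream of PRDM1: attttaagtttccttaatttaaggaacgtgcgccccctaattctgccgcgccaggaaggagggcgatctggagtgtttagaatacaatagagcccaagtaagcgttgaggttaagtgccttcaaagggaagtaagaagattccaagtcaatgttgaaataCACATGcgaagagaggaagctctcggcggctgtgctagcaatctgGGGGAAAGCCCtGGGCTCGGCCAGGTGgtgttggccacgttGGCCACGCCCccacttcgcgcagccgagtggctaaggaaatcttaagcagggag
Upstream of ATG5: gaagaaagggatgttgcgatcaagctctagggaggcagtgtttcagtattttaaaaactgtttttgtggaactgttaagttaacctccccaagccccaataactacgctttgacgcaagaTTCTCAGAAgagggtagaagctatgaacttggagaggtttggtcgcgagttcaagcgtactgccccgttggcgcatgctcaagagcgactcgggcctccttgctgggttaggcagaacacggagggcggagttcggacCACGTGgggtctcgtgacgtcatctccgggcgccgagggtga

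In the -1.62 kb peak the AP-1 word reads TGACTCA, at bases 108 to 114 of the printed stretch. Both strands were searched. Of the central 300 bases of the 77 peaks, 27.3% held an AP-1 word, against 17.8% of all peaks and 5.79% of the stretches upstream of the canonical starts of 19688 genes. TEAD words (GGAATG) were found in 29.9% of the 77 peaks and 21.3% of all peaks, NF-kB words in 27.3% and 42.5%, STAT words in 9.09% and 8.70%, E-boxes in 83.1% and 82.7%, and interferon response words (GAAANNGAA) in 11.7% and 8.44%. The median GC content of these stretches was 43.3% in the window and 49.7% over all peaks, and the words differ in base composition. A match shows that the letters are present and nothing about binding.

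Most of the window was weakly accessible, with a few strong peaks. The 5 highest were the -1.62 kb peak (mean log2 CPM 4.19 over the 18 libraries), the peak over the ATG5 start (4.17), the peaks at -80.2 kb (3.94) and -91.6 kb (3.91) in introns of the longer PRDM1 isoforms and the peak at 77.6 kb in an ATG5 intron (3.53). The -1.62 kb peak was at a higher level than 96.5% of all peaks. The peak over the canonical PRDM1 start itself was lower, at 2.63. The gene record start had no peak over it; the -91.6 kb peak was centred 1243 bp inside the record. The peak over the CRYBG1 start stood at 1.81. Peaks were spaced at 17.0 per 100 kb in the flank before PRDM1, 19.2 in the PRDM1 body alone, 17.0 where both bodies overlap, 13.9 in the ATG5 body alone and 9.00 in the flank beyond the ATG5 start.

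**Figure D1:**
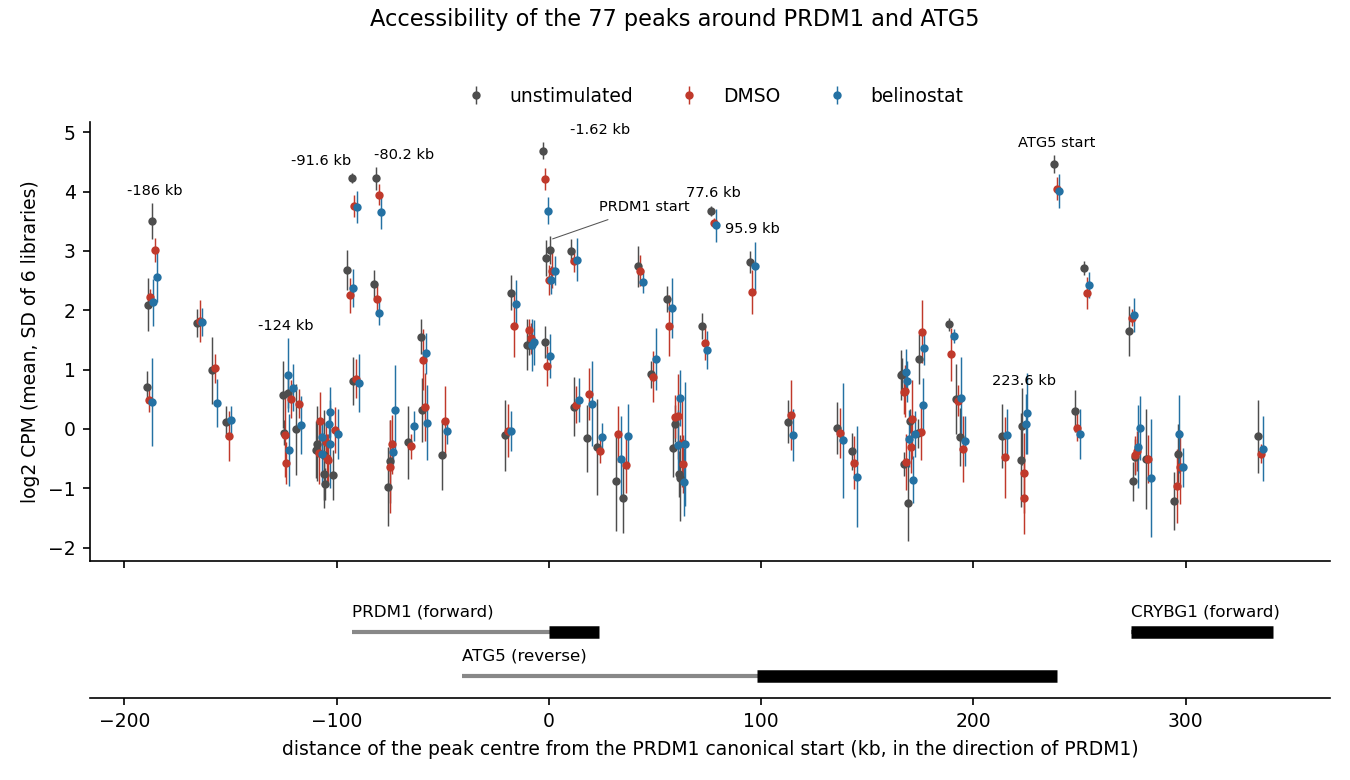
Mean log2 CPM (TMM scaling; vertical axis) with SD over 6 libraries for each of the 77 peaks in the 3 groups, against distance from the canonical PRDM1 start in kb (horizontal axis, groups shifted slightly); below, gene bodies in grey with the canonical transcripts in black, CRYBG1 cut at the edge. The tallest points are the -1.62 kb peak, the ATG5 start and the pair at -91.6 and -80.2 kb, and the unstimulated mean is the highest of the 3 at each of them.

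The -1.62 kb peak stepped down from group to group. Unstimulated libraries ranged from 4.57 to 4.88 log2 CPM (median 4.62), DMSO libraries from 3.87 to 4.37 (median 4.28) and belinostat libraries from 3.44 to 4.08 (median 3.64). The counts behind these levels were 161 to 243, 124 to 149 and 60 to 88 per library. Every unstimulated library lay above every DMSO and every belinostat library, whereas DMSO and belinostat libraries overlapped through DMSO 4 and belinostat 1. In CPM the means were 25.6 ± 2.53, 18.4 ± 2.26 and 12.6 ± 2.18 (SD, n = 6 each). In edgeR's quasi-likelihood test with Benjamini-Hochberg adjustment over all peaks, its log2 fold change came to -0.48 with an SE of 0.11 (adjusted p 0.00171) in the cytokine contrast, -0.55 ± 0.12 (adjusted p 0.00258) in the belinostat contrast and -1.03 ± 0.12 (adjusted p 2.74e-12) in the residual contrast.

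Part of that fall was shared with strong peaks elsewhere. Peaks within 0.25 log2 CPM of its level had median log2 fold changes of -0.37, -0.14 and -0.51 in the 3 contrasts (5800 peaks). With loess offsets, which take out the trend of each library with the level of the peak, the -1.62 kb peak changed by -0.11 in the cytokine contrast (adjusted p 0.378), by -0.38 in the belinostat contrast (adjusted p 0.00264) and by -0.50 in the residual contrast (adjusted p 3.37e-06). Its cytokine call was therefore lost and the other calls were held. The belinostat call was past the threshold with each library left out in turn (adjusted p 0.000116 to 0.0159), and was missed with TMM over the weaker 50% of peaks (adjusted p 0.102) and with the exact Wilcoxon rank-sum test (adjusted p 0.174).

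**Figure D2:**
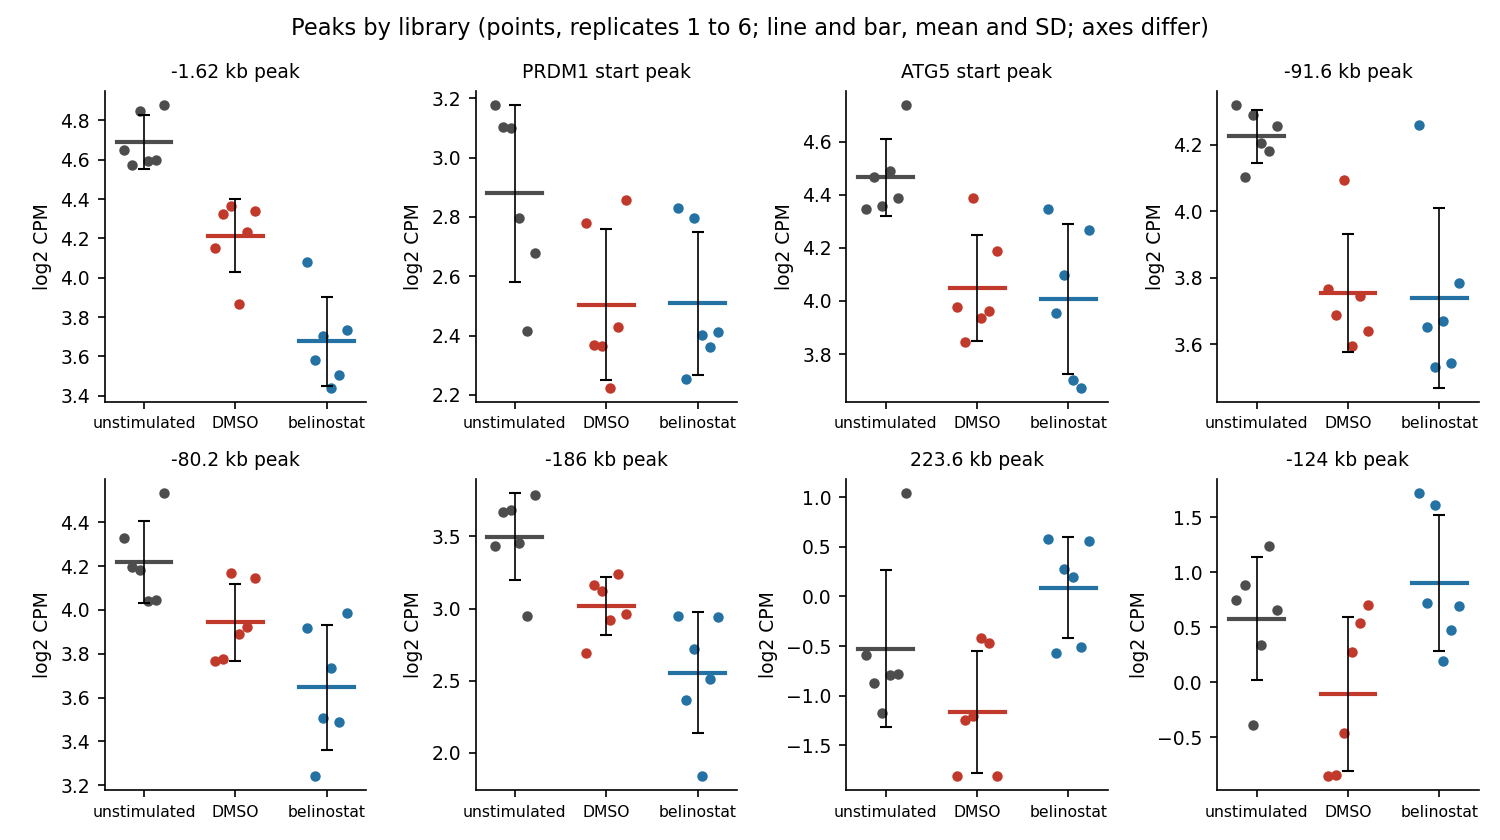
Log2 CPM (vertical axes, which differ) of 8 peaks in each library, with replicates 1 to 6 from left to right within a group, the mean as a line and the SD as a bar. The -1.62 kb peak falls at each step, while the peaks over both gene starts and at -91.6 kb lie at like levels in DMSO and belinostat libraries, and the 223.6 kb and -124 kb peaks lie lowest in DMSO libraries.

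The peaks over the gene starts did not follow it in the belinostat contrast. The peak over the canonical PRDM1 start (chr6:106086067-106086478, exon 1 and upstream sequence) had 2.42 to 3.18 log2 CPM in unstimulated libraries (median 2.95), 2.22 to 2.86 in DMSO libraries (median 2.40) and 2.26 to 2.83 in belinostat libraries (median 2.41). The 3 ranges overlapped. It was called lower in the cytokine contrast (-0.40 ± 0.15 SE, adjusted p 0.047) and in the residual contrast (-0.41 ± 0.16, adjusted p 0.037), and was at -0.01 ± 0.17 in the belinostat contrast (adjusted p 0.985). Both calls were lost with loess offsets (adjusted p 0.63 and 0.905) and with library totals (adjusted p 0.337 and 0.583), and leaving out 1 library ended the cytokine call in 9 of 18 cases, among them unstimulated 6.

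The peak over the ATG5 start (chr6:106325099-106326173, exon 1 and upstream sequence) had 4.35 to 4.74 log2 CPM in unstimulated (median 4.43), 3.84 to 4.39 in DMSO (median 3.97) and 3.67 to 4.35 in belinostat libraries (median 4.03). Belinostat libraries spread over the DMSO range, and the highest of them lay just under the lowest unstimulated library (both 4.35 after rounding). The log2 fold changes were -0.42 ± 0.12 (adjusted p 0.00755), -0.04 ± 0.12 (adjusted p 0.898) and -0.46 ± 0.12 (adjusted p 0.00202) in the cytokine, belinostat and residual contrasts. With loess offsets they were -0.06, 0.12 and 0.06, none of them called.

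To compare peaks in a way that a single factor per library cannot alter, the log2 CPM of the -1.62 kb peak was set against that of another peak in the same library. This comparison was added after the values were seen, and the peak had been picked by its change in these libraries, so the p-values are not independent of that call. Against the PRDM1 start the difference averaged 1.81 ± 0.32 (SD, n = 6) for unstimulated, 1.71 ± 0.26 for DMSO and 1.17 ± 0.17 for belinostat. Belinostat lay 0.54 below DMSO with no overlap of the libraries (difference -0.54, exact permutation p 0.00216, adjusted p 0.00406 over 15 comparisons; 0.00216 is the smallest p of 6 against 6), and DMSO and unstimulated libraries overlapped (-0.10, exact permutation p 0.554).

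The same held against the ATG5 start, with means of 0.22 ± 0.15 (SD, n = 6) for unstimulated, 0.16 ± 0.20 for DMSO and -0.33 ± 0.13 for belinostat. In DMSO libraries the -1.62 kb peak was on average the higher of the 2, and in all 6 belinostat libraries the ATG5 start was. The belinostat difference was -0.50 against the ATG5 start, -0.52 against the -91.6 kb peak and -0.49 against the 77.6 kb peak, each without overlap (exact permutation p 0.00216, adjusted p 0.00406). Against the -80.2 kb peak it was -0.24, and the libraries overlapped (exact permutation p 0.104, adjusted p 0.130). The cytokine difference was -0.27 against the 77.6 kb peak (exact permutation p 0.0346, adjusted p 0.0519) and -0.20 against the -80.2 kb peak (exact permutation p 0.0779, adjusted p 0.106), neither past the threshold. The residual difference from the -80.2 kb peak was -0.44 (exact permutation p 0.00433, adjusted p 0.00722).

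**Figure D3:**
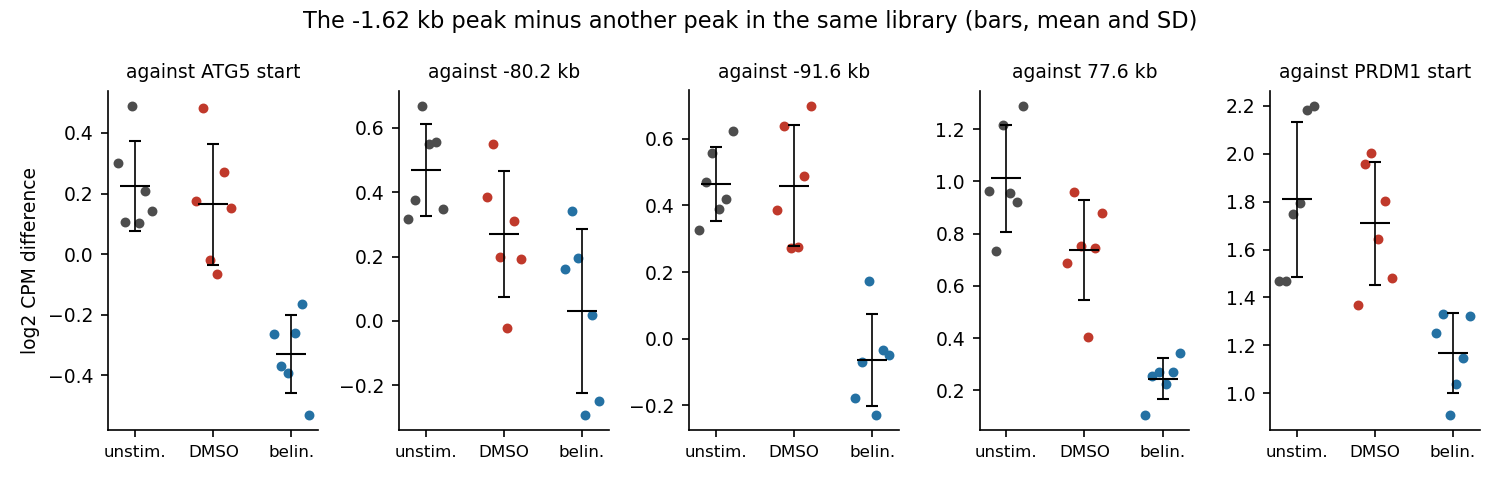
Log2 CPM of the -1.62 kb peak minus that of another peak in the same library (vertical axes, which differ), for 5 comparison peaks and 3 groups; points are libraries, bars mean and SD. Belinostat libraries lie below all DMSO libraries in 4 of 5 panels, and overlap them for the -80.2 kb peak.

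The -80.2 kb peak (chr6:106005774-106006576, intronic to PRDM1) had 4.04 to 4.53 log2 CPM across unstimulated libraries, 3.76 to 4.17 across DMSO and 3.24 to 3.99 across belinostat ones (medians 4.19, 3.91 and 3.62). Its residual log2 fold change was -0.56 ± 0.13 (adjusted p 0.000222), with no overlap between belinostat and unstimulated libraries, and neither step on its own was called (-0.28 in both, adjusted p 0.0818 and 0.249). With loess offsets the residual value was -0.05 (adjusted p 0.794).

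Its neighbour at -91.6 kb (chr6:105994051-105995362, 1312 bp, intronic to PRDM1) fell in the cytokine contrast. Unstimulated libraries had 4.10 to 4.32 log2 CPM, DMSO libraries 3.59 to 4.10 and belinostat libraries 3.53 to 4.26 (medians 4.23, 3.72 and 3.66). Unstimulated and DMSO libraries did not overlap, and belinostat 1 lay within the unstimulated range. The cytokine log2 fold change was -0.48 ± 0.12 (adjusted p 0.00316), the belinostat one -0.01 ± 0.13 (adjusted p 0.984) and the residual one -0.48 ± 0.12 (adjusted p 0.00145). Loess offsets gave -0.13, 0.14 and 0.01, with no call.

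An intergenic peak at -186 kb (chr6:105900489-105901005, in the flank before PRDM1) had the only other residual call that loess offsets kept. Unstimulated libraries had 2.95 to 3.79 log2 CPM, DMSO libraries 2.69 to 3.24 and belinostat libraries 1.84 to 2.95 (medians 3.56, 3.04 and 2.61). Belinostat libraries lay below all unstimulated libraries, by the narrowest of margins (both 2.95 after rounding). The log2 fold change was -0.51 ± 0.14 (adjusted p 0.00588) in the cytokine, -0.45 ± 0.16 (adjusted p 0.111) in the belinostat and -0.96 ± 0.15 (adjusted p 1.18e-07) in the residual contrast. The residual value with loess offsets was -0.53 (adjusted p 0.00282), whereas the cytokine call was lost with them (-0.20, adjusted p 0.316), with library totals (adjusted p 0.0687) and in the rank-sum test (adjusted p 0.111). Leaving out belinostat 1 brought the belinostat contrast past the threshold (adjusted p 0.0421).

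The ATG5 intron peak at 95.9 kb (chr6:106182035-106182464), just beyond the 3′ end of the canonical ATG5 transcript, fell in the cytokine contrast (-0.52 ± 0.16, adjusted p 0.0154), a call that ended without unstimulated 4 (adjusted p 0.0649) or DMSO 1 (adjusted p 0.0682). It was also lost with loess offsets (-0.25, adjusted p 0.339), library totals (adjusted p 0.129), DESeq2 (adjusted p 0.0749) and the rank-sum test (adjusted p 0.063). Its levels were 2.52 to 3.06 log2 CPM across unstimulated libraries, 1.70 to 2.70 across DMSO and up to 3.27 across belinostat ones (medians 2.79, 2.36 and 2.65). The belinostat change of 0.45 ± 0.17 was not called (adjusted p 0.143), but was with loess offsets (0.55, adjusted p 0.0278) and with library totals (0.54, adjusted p 0.039). With TMM scaling the 77.6 kb peak was not called in any contrast (-0.21, -0.04 and -0.25, adjusted p 0.233, 0.913 and 0.140). It was in the residual contrast without belinostat 1 (-0.37, adjusted p 0.019), in the cytokine contrast by the rank-sum test (adjusted p 0.0461), and in both with TMM over the weaker 50% of peaks (-0.65 and -0.78, adjusted p 0.0127 and 0.0016). Nor was the CRYBG1 start (0.19, 0.06 and 0.25, adjusted p 0.51, 0.891 and 0.337) called with TMM, though its residual value was called with library totals (0.56, adjusted p 0.0184).

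Belinostat also went with a rise at 2 weak peaks. The 223.6 kb peak, intronic to ATG5, had 1 to 11 counts across unstimulated libraries, 0 to 4 across DMSO and 2 to 8 across belinostat ones. The log2 fold change was 1.94 ± 0.54 (adjusted p 0.024) in the belinostat contrast and -1.22 ± 0.58 (adjusted p 0.117) in the cytokine contrast. The groups overlapped, and the call was lost with loess offsets (adjusted p 0.0533), in the DESeq2 Wald test (adjusted p 0.0996) and in the rank-sum test (adjusted p 0.298). Leaving out DMSO 1, 2, 3 or 6 or belinostat 6 also ended it, with an adjusted p of up to 0.0802. The 11 counts came from unstimulated 6, without which the cytokine value was -0.45 (adjusted p 0.683) and the residual value, 0.72 with all libraries, was 1.48 (adjusted p 0.0218). The adjacent peak at 223.9 kb, named here for its closeness, moved alike without a call (belinostat 1.46 ± 0.44, adjusted p 0.0509; cytokine -1.16 ± 0.45, adjusted p 0.0506), and with loess offsets its cytokine value was called (-1.53, adjusted p 0.0305).

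The other was an intergenic peak at -124 kb (chr6:105962090-105962419), with 3 to 14 counts across unstimulated libraries, 2 to 10 across DMSO and 6 to 15 across belinostat ones. It rose by 1.15 ± 0.33 on the log2 scale in the belinostat contrast (adjusted p 0.0374), with overlapping libraries. The cytokine value was -0.79 ± 0.34 (adjusted p 0.0815), called in 3 of 28 alternatives (without unstimulated 3 or DMSO 6, and with TMM over the weaker 50% of peaks, adjusted p 0.0466, 0.0352 and 0.00217), and the residual value was 0.36 ± 0.30 (adjusted p 0.373). The adjusted p was 0.0586 with loess offsets, 0.098 with TMM over the weaker 50% of peaks, 0.113 in DESeq2, 0.393 in the rank-sum test and up to 0.162 with 1 library left out, and 5 of 18 such fits (without DMSO 1, 2 or 3 or belinostat 1 or 3) ended the call. Cut into 10 pieces of 30 bases, 3 of its pieces recur elsewhere in hg38, up to 29219 times, whereas every piece of the -1.62 kb stretch occurs once. How reads of the recurring pieces were placed was not tested.

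Across the window, calls with TMM scaling and all libraries were no more frequent than in the whole table in most directions. In the cytokine contrast 8 of 77 peaks were closed (10.4%), against 9.73% of all peaks, and 2 were opened (2.60%), against 9.51%. Without unstimulated 6, 5 of the 77 were closed (6.49%) and 1 was opened (1.30%). In the belinostat contrast 1 was closed (1.30%) and 2 were opened (2.60%), against 1.75% and 0.607% of all peaks. In the residual contrast 7 were closed (9.09%) and 6 were opened (7.79%), against 13.7% and 16.8%. The median log2 fold change of the 77 peaks was -0.12, 0.06 and -0.03 in the 3 contrasts, beside 0.13, 0.01 and 0.20 over all peaks. With loess offsets 0 peaks were opened and 1 was closed in the cytokine contrast (2 and 7 at an unadjusted p under 0.05, edgeR), 1 and 1 in the belinostat contrast, and 0 and 2 in the residual contrast (4 and 8 unadjusted). Shares over all peaks are not given here for loess offsets or for fits without a library, so those counts are not set against the whole table.

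**Figure D4:**
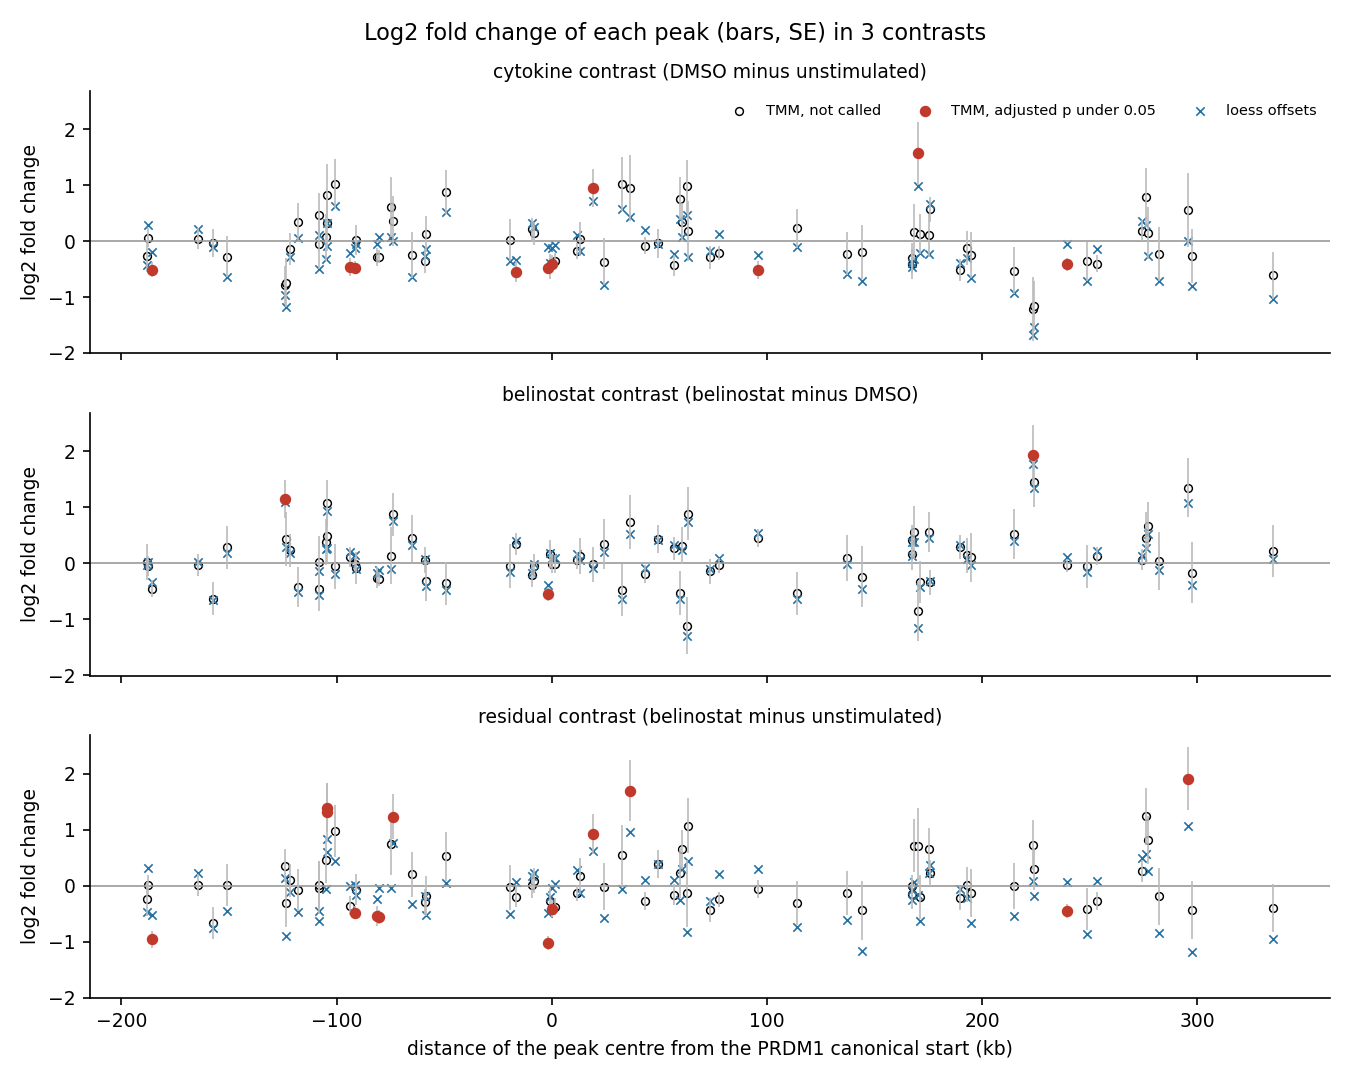
Log2 fold change (vertical axis) with SE of each peak against its distance from the canonical PRDM1 start in kb, for the cytokine, belinostat and residual contrasts; filled points have an adjusted p under 0.05 with TMM scaling, open points do not, and crosses are the values with loess offsets. In the belinostat panel the called points are the -1.62 kb peak below 0 and the -124 kb and 223.6 kb peaks above it.

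With TMM scaling, closed peaks were the strong ones and opened peaks the weak ones. Of the 17 peaks at an average log2 CPM of 2 or more, a split made after the values were seen, 8 were closed and 0 opened in the cytokine contrast, 1 and 0 in the belinostat contrast and 7 and 0 in the residual contrast (unadjusted p under 0.05 for a rise in 0, 1 and 0 of them). Over all peaks 48.6%, 8.42% and 65.6% of those at that level were closed, beside 47.1%, 5.88% and 41.2% in the window. All opened peaks were among the 60 weaker ones, with 2, 2 and 6 opened and 0 closed in the 3 contrasts by edgeR (5, 2 and 2 lower at an unadjusted p under 0.05). The shares opened, 3.33%, 3.33% and 10.0%, stand beside 11.2%, 0.526% and 19.9% of all peaks under that level. The split by strength held with the size factors of DESeq2 and with TMM over 10 kb bins, but not with every scaling. With library totals 1 strong peak was opened in the belinostat contrast. With loess offsets the residual median was 0.0586 over the 17 strong peaks (11 above 0) and -0.17 over the 60 weaker ones, and the 1 peak opened in the belinostat contrast was a strong one. With TMM over the weaker 50% of peaks, 11 of the weaker peaks were closed in the cytokine contrast and 8 in the residual contrast.

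**Figure D5:**
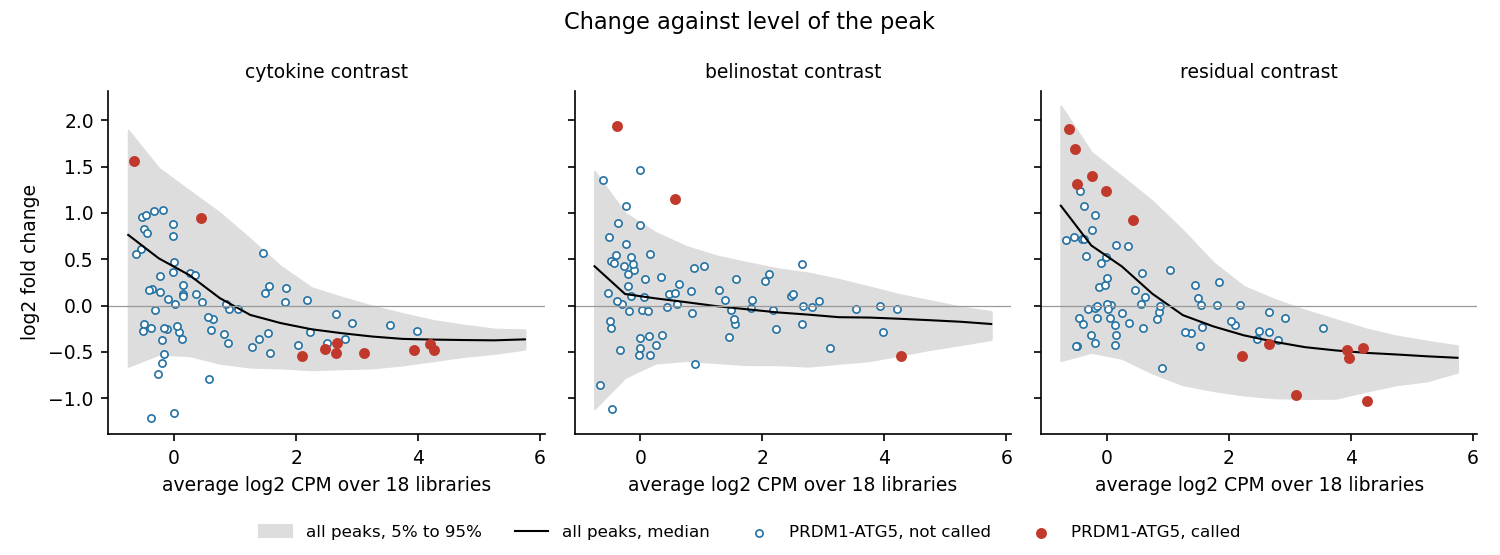
Log2 fold change (vertical axis) against average log2 CPM (horizontal axis) of the 77 peaks, called or not called with TMM scaling, over the median and the 5% to 95% range of all peaks of that level. In the belinostat and residual panels the -1.62 kb peak lies under the shaded range, and the called rises in the residual panel sit among the weakest peaks.

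Summed over whole zones, by peak centre, the changes were smaller. Where both bodies overlap, log2 CPM averaged 5.98 ± 0.13 (SD, n = 6) without treatment, 5.67 ± 0.08 with DMSO and 5.51 ± 0.19 with belinostat. The fall of 0.31 in the cytokine contrast separated the groups entirely (difference -0.31, exact two-sided permutation p 0.00216, adjusted p 0.0244 over 15 zone comparisons), and the residual one was -0.47 (exact permutation p 0.00433, adjusted p 0.0244). The PRDM1 body alone changed by -0.30 and -0.42 in these contrasts (exact permutation, adjusted p 0.026 and 0.0244) and the ATG5 body alone by -0.23 and -0.16 (exact permutation, adjusted p 0.0244 and 0.110). In the belinostat contrast no zone passed: -0.03 in the flank before PRDM1, -0.12 in the PRDM1 body, -0.15 in the overlap, 0.07 in the ATG5 body and 0.17 in the flank beyond the ATG5 start (exact permutation, adjusted p 0.0938 to 0.828). With library totals or loess offsets no zone passed in any contrast.

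Summed over each gene with its upstream 3 kb, PRDM1 (22 peaks) had 6.71 to 7.04 log2 CPM across unstimulated libraries, 6.49 to 6.74 across DMSO and 6.25 to 6.77 across belinostat ones, and ATG5 (41 peaks) 7.04 to 7.29, 6.74 to 7.00 and 6.60 to 7.09. These are sums over a locus and not levels of expression, and the genes share 11 peaks. For PRDM1 the log2 fold change was -0.32 ± 0.08 in the cytokine contrast (adjusted p 0.00105), -0.12 ± 0.08 in the belinostat contrast (adjusted p 0.386) and -0.44 ± 0.08 in the residual contrast (adjusted p 1.54e-05), by edgeR over 18887 genes. For ATG5 it was -0.27 ± 0.07 (adjusted p 0.00203), -0.02 ± 0.07 (adjusted p 0.913) and -0.29 ± 0.07 (adjusted p 0.000743). Over all genes 61.6% were lower in the cytokine contrast, 1.73% in the belinostat contrast and 65.9% in the residual contrast, with medians of -0.26, -0.08 and -0.35. For genes, loess offsets were fitted to the level of the summed locus and not of each peak. With them PRDM1 stood at -0.02, 0.01 and -0.01, with no call. ATG5 turned to 0.13 ± 0.03 in the residual contrast (adjusted p 0.00313), the opposite direction. With offsets fitted per peak, the zones of the ATG5 body changed by -0.12 (overlap) and 0.05 (ATG5 body alone) in that contrast, neither past the threshold. The direction of the ATG5 sum in the residual contrast thus changed with the scaling. The residual call of the -1.62 kb peak, taken as a single peak, was past the threshold under all 28 alternatives (adjusted p 5.93e-15 to 0.0247). The other residual call that per-peak loess offsets kept, at an intergenic peak in the flank before PRDM1, was also held under all 28.

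Partners of both proteins were read the same way, from lists chosen with earlier results of these data known. The counts stand beside 61.6% of all genes lower and 10.6% higher in the cytokine contrast and 65.9% and 12.9% in the residual contrast with TMM. With loess offsets these shares of all genes were 7.47% and 13.5%, and 17.8% and 19.8%. With library totals they were 18.8% and 18.1%, and 29.2% and 25.1%. Of 17 genes that join ATG12 to ATG5 and attach LC3 to lipid, 14 were lower and 0 higher in the cytokine contrast, and 13 lower and 1 higher in the residual contrast. With loess offsets these counts were 1 and 1, and 5 and 2, and with library totals 5 and 1, and 7 and 1. ATG12, the ubiquitin-like partner of ATG5, changed by -0.55 ± 0.10 in the cytokine contrast (adjusted p 0.000267) and by -0.27 with loess offsets (adjusted p 0.00369). GABARAP, a relative of LC3, changed by -0.64 ± 0.09 in the residual contrast (adjusted p 1.18e-06), and by -0.24 with loess offsets (adjusted p 0.00071). Of 15 genes that start autophagy and form the first membranes, 14 and 13 were lower and 0 higher, among them ULK2, a kinase that starts the process (-0.40 ± 0.08 and -0.52 ± 0.08, adjusted p 0.000367 and 3.47e-06). With loess offsets 1 was lower and 1 higher in the cytokine contrast and 3 and 1 in the residual contrast, and ULK2 was at -0.12 (adjusted p 0.101) and -0.15 (adjusted p 0.0388), so that its cytokine call was lost.

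Of the 14 other PRDM family genes, 7 were lower and 2 higher in the cytokine contrast, and 8 and 2 in the residual contrast. The balance turned with the scaling: 0 were lower and 1 higher, and 1 lower and 4 higher, with loess offsets, and 0 and 3, and 2 and 6, with library totals. Over all genes it turned as well with loess offsets (7.47% lower and 13.5% higher, and 17.8% and 19.8%). With library totals the lower share stayed the larger one (18.8% and 18.1%, and 29.2% and 25.1%). Of 11 regulators of PRDM1 in lymphocytes, 9 were lower and 1 higher in both contrasts, among them RELA, an NF-kB subunit (-0.40 ± 0.09 and -0.59 ± 0.10, adjusted p 0.000773 and 4.54e-06). The repressor BCL6, on this list and the next, was at -0.37 ± 0.08 and -0.55 ± 0.09 (adjusted p 0.000714 and 3.5e-06). With loess offsets 0 of the 11 were lower and 2 higher in the cytokine contrast and 3 and 2 in the residual contrast. RELA was then called in the residual contrast (-0.24, adjusted p 0.00546) and not in the cytokine contrast (-0.13, adjusted p 0.121), and BCL6 in neither (adjusted p 0.319 and 0.0912). Of 6 genes that the PRDM1 protein represses in B cells, 3 were lower and 1 higher in both, and with loess offsets 1 was lower and 2 higher, and 0 and 2. The higher one was PAX5, a B cell factor, at 0.25 ± 0.07 and 0.33 ± 0.07 (adjusted p 0.00241 and 0.000108), and also at 0.55 and 0.77 with loess offsets.

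In the belinostat contrast 0 genes of the 5 lists passed in edgeR with TMM, beside 1.73% of all genes lower and 0.138% higher. With loess offsets 1 other PRDM family gene was higher, beside 2.49% of all genes lower and 2.39% higher. With library totals 1 other PRDM family gene was higher and 1 regulator of PRDM1 lower, beside 2.94% of all genes lower and 1.54% higher. With TMM the medians of the lists lay between -0.33 and -0.18 in the cytokine contrast, -0.17 and -0.05 in the belinostat contrast and -0.44 and -0.21 in the residual contrast, around those of all genes.

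The loci whose sums ran most like PRDM1 over the 18 libraries, among 15754 protein-coding genes with no shared peak and an average of 3 log2 CPM or higher, were MPST (Pearson's r 0.985), H3-3A (0.982) and TST (0.982). For ATG5 they were ABCG2 (0.978), ENSG00000258864 (0.974) and CPQ (0.974). PRDM1 and ATG5 themselves had an r of 0.938, but their sums share 11 peaks. That r therefore cannot be compared with the others, which come from genes with no shared peak. The median r over all those genes was 0.859 with PRDM1 and 0.848 with ATG5. All these values come from the same libraries, groups and scaling factors.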

How the data were processed

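Fragment counts per consensus peak of 18 bulk ATAC-seq libraries were used as deposited. Per the study's methods, the authors ran the ENCODE pipeline for ATAC-seq on build hg38, called peaks with MACS2, merged them into a consensus, counted fragments with csaw and removed blacklisted regions; the deposited values are these raw counts. The authors' background bins were not used here, and TMM factors were taken from the peaks. File starts were raised by 1 to give 1-based positions, and genes follow GENCODE 44. Counts were tested over all peaks, or summed per gene with 3 kb upstream, by the quasi-likelihood test of edgeR 4.0.16 in R 4.3.3, with Benjamini-Hochberg adjustment, a threshold of 0.05, a minimum average log2 CPM of -3 and a prior count of 2. Log2 CPM values carry that prior; CPM means do not. All groups entered 1 fit, without a block on the replicate number. Loess offsets and the paired check used limma 3.58.1 and edgeR, and DESeq2 1.42.0 was an alternative. Zones and differences between peaks were tested by exact two-sided permutation. The fit was tested on simulated data. Total counts ranged from 4661678 to 11352032 per library; p-values cover the spread between libraries. Motif words were searched in the central 300 bases of each peak; for both gene starts the stretch just upstream is printed in place of the peak centre, and the sequence of 1 other named peak is not reported here. The members and gene lists were chosen with earlier results of these data known. Named peaks were those called in the belinostat contrast, the strongest peaks, the peaks over gene starts and those with the smallest p in a contrast; named genes had the smallest p of their list. Alternatives were other scalings, filters, tests, a merge of adjacent peaks and leaving out each library.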

Additional observations from a re-analysis of the deposited data

Results flagged for a closer look

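In 7 of 48 groups of 6 libraries tested, 1 library lay far from the others by Dixon's gap criterion, where chance gives about 1 in 20. At the -91.6 kb peak DMSO 3 stood at 4.10 log2 CPM (other DMSO libraries 3.59 to 3.76) and belinostat 1 at 4.26 (others 3.53 to 3.78). Without DMSO 3 the cytokine value was -0.56 (adjusted p 0.000678), and without belinostat 1 the residual value was -0.60 (adjusted p 2.6e-05), both in edgeR. Belinostat 1 was also high at the 77.6 kb peak, at 3.98 (others 3.22 to 3.44), and without it the residual value there was -0.37 (edgeR, adjusted p 0.019) against -0.25 (adjusted p 0.140) with all libraries. At the ATG5 start unstimulated 6 stood at 4.74 (others 4.35 to 4.49), and without it the cytokine and residual values were -0.35 and -0.40 (edgeR, adjusted p 0.0425 and 0.0123). At the 223.6 kb peak unstimulated 6 stood at 1.04 (others -1.17 to -0.58). In the PRDM1 body alone DMSO 3 stood at 5.58 (others 5.22 to 5.32), and in the flank beyond the ATG5 start belinostat 3 was low, at 3.41 (others 3.71 to 3.85).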

How the results depend on the processing

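The number of called peaks in the window moved with the scaling, and shares over all peaks are not given for the settings below. With library totals, 5 peaks were opened and 2 closed in the cytokine contrast, 4 were opened in the belinostat contrast, and 14 were opened and 3 closed in the residual contrast. TMM over the weaker 50% of peaks gave 0 and 26, 1 and 0, and 1 and 24. Loess offsets gave 0 and 1 in the cytokine contrast, 1 opened in the belinostat contrast, and 0 and 2 in the residual contrast. The DESeq2 Wald test gave 0 and 4 in the cytokine contrast and 0 opened in the belinostat contrast, and the exact Wilcoxon rank-sum test 0 and 4, 0 and 0, and 1 and 4. Merging adjacent peaks left 1 opened in the belinostat contrast, and an average log2 CPM over 0 left 1 opened in the residual contrast. Leaving out 1 library gave 0 to 3 opened and 5 to 11 closed in the cytokine contrast, 0 to 3 and 1 to 2 in the belinostat contrast, and 3 to 7 and 5 to 10 in the residual contrast. The causes were not tested, other than that fewer libraries or peaks entered some fits.

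The PRDM1 sum changed by -0.10 (library totals) and -0.0239 (loess) in the cytokine contrast and by -0.0126 (loess) in the residual contrast, none past the threshold. The ATG5 sum was at -0.0534 (totals) and 0.0212 (loess, reversed) in the cytokine contrast, and turned to 0.0143 (totals) and 0.13 (loess) in the residual contrast. With totals and loess, in that order, the PRDM1 body alone was at -0.0876 and -0.0508 (cytokine) and -0.12 and -0.0703 (residual), the overlap at -0.098 and -0.0556 and at -0.16 and -0.12, and the ATG5 body alone at -0.0132 and -0.0853 (cytokine). The residual value turned positive with loess offsets at the -91.6 kb peak (0.0149) and at the ATG5 start (0.0586). The cytokine difference of the -1.62 kb peak ranged with 1 library left out from -0.26 to -0.14 against the -80.2 kb peak and from -0.33 to -0.21 against the 77.6 kb peak, and passed without DMSO 2 (-0.26) or, for the latter, without unstimulated 2 or DMSO 2 (-0.33 and -0.32).

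Same-numbered libraries did not deviate together (correlations -0.18 to 0.15), so the numbers were not taken to pair the libraries. With a replicate block the -1.62 kb peak changed by -0.55 in the belinostat contrast (edgeR, adjusted p 0.00107), and 2 and 10, 3 and 1, and 5 and 8 peaks were opened and closed in the 3 contrasts. Depth limits the weak peaks most: the median count was 7.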
